A study of Mus musculus with 2 samples.

Results

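Interferon-induced genes and interferon regulatory factors (IRFs) were followed in islet grafts 6 hours after transplantation. They were chosen by gene symbol alone, as the probe sets with 1 gene symbol that began as those of the IRF, IFIT, IFITM, OAS, GBP, Irgm, Trim30, Isg and numbered Ifi genes do, or that was Mx1, Mx2, Rsad2, Usp18, Ifih1, Xaf1, Bst2, Igtp or Iigp1. This gave 67 genes with 95 probe sets, out of 18193 genes and 45037 probe sets without controls. Islets of wild-type (WT) C57BL/6 mice, 50 per recipient, had been placed under the left kidney capsule of a male mouse. Total RNA of 1 graft sample from a hyperglycemic recipient, heterozygous for the Akita mutation of the insulin gene Ins2, and of 1 graft sample from a normoglycemic WT C57BL/6 recipient was hybridized to 1 GeneChip MOE430 2.0 array each. How many mice stand behind each array is not given by the labels or the methods, and an age is given only for Akita recipients of the study's outcome experiments. The Akita mutation makes insulin misfold in the recipient's own beta cells, whereas the transplanted islets carried no mutation. The recipients differed in genotype and glucose level together, so these cannot be told apart. With 1 array per group there was no replicate, no test and no error between animals, and every difference is one between these 2 arrays. Hereafter Akita and WT stand for the graft from that recipient.

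Interferons are cytokines that cells release on sensing viral nucleic acid, bacterial products or damage. Type I and type III interferons signal through JAK kinases to a complex that holds IRF9 and binds the interferon-stimulated response element (ISRE) of promoters, whereas the response to interferon gamma acts through the gamma-activated site (GAS). The genes induced in this way restrict viral RNA, disrupt vacuoles that hold pathogens, or feed back on the pathway, and many lie in clusters of duplicated genes. Macrophages express many of them strongly, and some of the genes chosen by symbol, such as Irf2bp1, Irf2bp2, Irf2bpl and Isg20l2, share a name and not necessarily the regulation.

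The letters of the ISRE and the GAS were looked up in the promoters of these genes. RefSeq promoters (GRCm38.p6, 250 bases before to 50 bases after the start of a gene) were matched for 54 of the 67 genes. The core of the ISRE, spelled GAAA, any 2 bases, GAAA on either strand, stood in 25 of the 54 (46.3%), against 1079 of all 27025 genes of the table (3.99%), a gene counting when any of its listed starts had it. It stood in 4 of 4 GBP genes, 4 of 5 IFIT genes, 3 of 4 immunity-related GTPase genes, 3 of 5 PYHIN genes, 3 of 7 OAS genes, 2 of 7 IFITM genes, 1 of 8 IRF genes and 0 of 3 IRF2-binding proteins. The GAS, spelled TTC, any 3 bases, GAA, stood in 15 of the 54 (27.8%), against 2582 of all genes (9.55%). The GAS spelling reads the same on both strands, copies of both can overlap, and a match is a description of letters, not of a bound site. Stretches of 60 bases before the start are printed for the 2 measured genes past 2-fold with the ISRE core before the start and for the 4 other such genes with the highest mean signals, each on the strand of its gene with the core in capitals.
Ifit3, chr19:34583382-34583441, plus strand: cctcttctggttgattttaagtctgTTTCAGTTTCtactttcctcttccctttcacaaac
Ifi207, chr1:173741816-173741875, minus strand: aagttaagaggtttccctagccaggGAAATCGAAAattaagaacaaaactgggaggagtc
Rsad2, chr12:26456538-26456597, minus strand: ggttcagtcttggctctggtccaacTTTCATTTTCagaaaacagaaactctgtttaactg
Ifitm2, chr7:140955973-140956032, minus strand: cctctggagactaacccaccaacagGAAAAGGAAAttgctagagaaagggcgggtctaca
Irgm1, chr11:48871421-48871480, minus strand: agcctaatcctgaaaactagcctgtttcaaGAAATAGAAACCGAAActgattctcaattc
Igtp, chr11:58199496-58199555, plus strand: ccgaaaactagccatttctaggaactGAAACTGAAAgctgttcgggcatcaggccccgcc
The core nearest the start began 122 bases before it in Ifit3, 120 in Rsad2, 46 in Ifitm2, 41 in Ifi207, 34 in Igtp and 24 in Irgm1, where 2 copies overlapped. Of these 6 genes, Ifi207, Ifitm2 and Rsad2 had the higher signal in Akita, and Ifit3, Irgm1 and Igtp had the lower one there. Over all measured genes with the core, 12 were higher and 9 lower (median log2 ratio of Akita over WT, 0.11), and over those without it 11 were higher and 11 lower (median 0.02). Over the 14 with the GAS, 8 were higher and 6 lower (median 0.19).

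The values are MAS5 signals on a linear scale, and differences are given as Akita signal over WT signal. Detection calls were not used, and a gene counted as measured if 1 or both of its signals were no lower than the array median, 91.5 on the Akita array and 82.9 on the WT array. Where only 1 signal reached it, both were raised to these medians and the ratio is given as a bound. The precision is limited by the number of arrays. As a technical yardstick, the ratios from the brightest pair of probe sets of a gene were compared with each other: they scattered with an SD of 1.16-fold where the dimmer probe set had a signal of at least 1024, 1.26-fold from 256 to 1024, 1.53-fold from 64 to 256 and 3.38-fold below 64. This covers probe sets of 1 array pair and no variation between mice. Control probe sets gave ratios of the 3′ to the 5′ end of the transcript of 3.99 on the Akita array and 3.54 on the WT array for Actb, and of 1.76 on the Akita array and 1.30 on the WT array for Gapdh. For both transcripts the ratio of the ends was higher on the Akita array, and its bearing on the differences between the arrays was not tested. Dividing each array by its median moved every log2 ratio by -0.14, so ratios near 1 have no settled direction. Over all measured genes this turned 948 higher and 695 lower past 2-fold into 812 (6.48%) higher and 951 (7.59%) lower.

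Of the 67 interferon genes, 52 were measured, 46 of them with neither signal below the medians. Among the 52, 29 were higher and 23 lower in Akita as deposited (median log2 ratio 0.09). Thus 55.8% were higher, against 44.8% of all 12538 measured genes (median -0.06). After median centring 46.15% were higher (median -0.05), against 33.58% of all measured genes (median -0.20). With quantile normalization and loess correction, 44.29% and 46.52% of all measured genes were higher. The counts by role below stand beside these shares. Past 2-fold, 7 of the 52 were higher (13.5%) beside 7.56% of all measured genes, and 3 were lower (5.77%) beside 5.54%. Raised to the array medians, 4 were higher (7.69% against 4.33% of all) and 2 lower (3.85% against 2.15%). Among the 46 whose signals both reached the medians, 4 were higher (8.7% against 3.53% of all 10816 such genes) and 2 lower (4.35% against 1.89%). By the scatter between probe sets, 10 of 52 were higher by over 2 SD (19.2% against 8.33%) and 3 were lower (5.77% against 8.92%). Most of the genes, 42 of 52 (80.8%), differed by no more than 2-fold, and 28 by no more than 1.5-fold. The remaining 15 genes had both signals below the medians and get no ratio. In the plot of signals, the members past 2-fold with both signals at the medians or higher were Ifitm6, Ifitm1, Ifi209, Isg20, Ifit3 and Gbp6. In the same grafts, 11 of 11 measured macrophage markers were past 2-fold, all higher in Akita (median log2 ratio 2.69), with summed signals of 87379 in Akita and 11151 in WT. The marker lists were chosen with earlier results of these data known. In RNA of a whole graft, fewer cells of a type and less RNA per cell cannot be told apart, and the part of the macrophage markers in the values below was not tested.

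**Figure D1:**
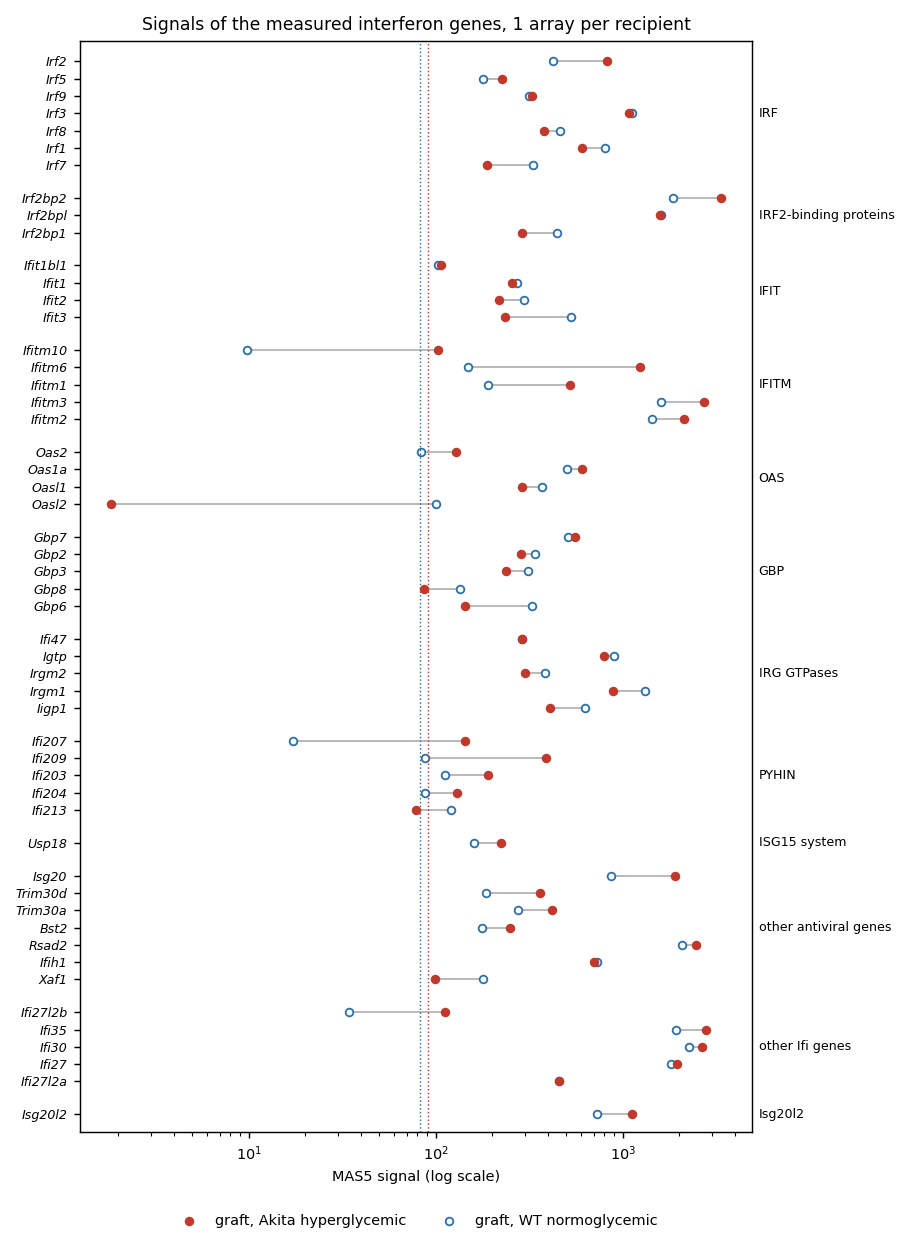
MAS5 signals (log scale) of the 52 measured interferon genes, grouped by role, filled points for the graft from the hyperglycemic Akita mouse and open points for the graft from the normoglycemic WT mouse, with the array medians as dotted lines (91.5 and 82.9). The signals of most genes lie close together, and the widest gaps above both medians are those of Ifitm6, Ifi209 and Ifitm1.

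**Figure D2:**
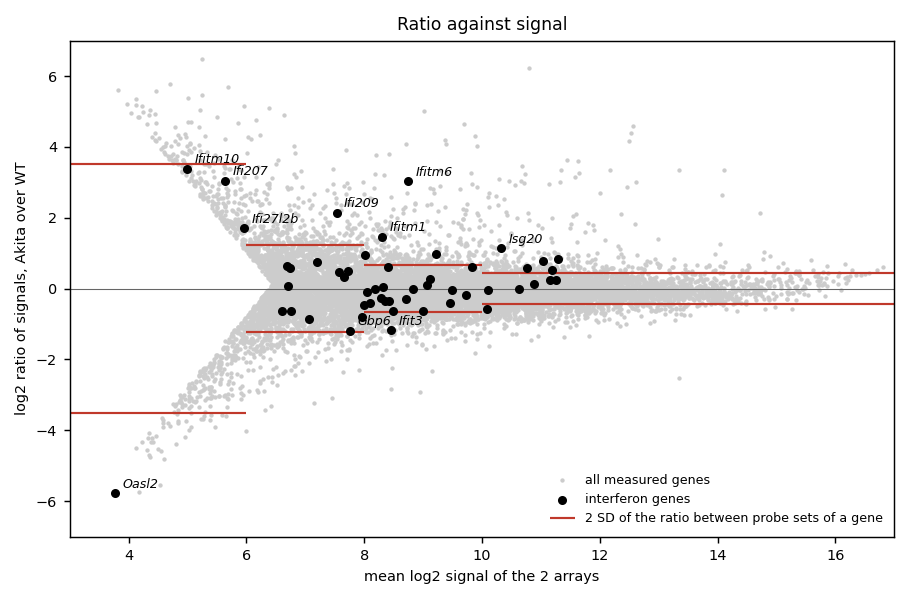
Log2 ratio of the signals, Akita over WT, against the mean log2 signal, for the 52 interferon genes (black) and all 12538 measured genes (grey), with red lines at 2 SD of the ratio between probe sets of a gene. Labelled genes are past 2-fold, and Ifitm10, Ifi207, Ifi27l2b and Oasl2 lie where 1 of the signals is below the array median.

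The IRFs are the transcription factors of the pathway. Of 8 on the array, 7 were measured, 3 higher and 4 lower, with 0 past 2-fold (median log2 ratio -0.05). Irf3, which is activated downstream of nucleic acid sensors to switch on interferon beta, had signals of 1082 in Akita and 1119 in WT (log2 ratio -0.05). These are from its brightest probe set, and its other measured probe sets gave log2 ratios of 1.03 and 0.78, so its direction is not settled. Irf7, which amplifies type I interferon and is itself interferon-induced, had 189 in Akita and 330 in WT (-0.80). Irf1, an activator that interferon gamma induces, had 607 in Akita and 804 in WT (-0.40). Irf7 and Irf1 were thus lower in Akita, by 1.75-fold and 1.32-fold, or 1.31 and 1.21 SD of the scatter between probe sets. Both differences lay within 2 SD of that scatter. Irf2, which competes with IRF1 for its sites and mostly represses, had 829 in Akita and 424 in WT. By the brightest probe set of each gene, it was the IRF farthest from equal signals (1.96-fold higher, log2 ratio 0.97, or 2.89 SD of the scatter between probe sets). Irf2, like Irf1, Irf7 and Irf9, was read from 1 probe set only, of a kind that can bind several transcripts. Irf9, a DNA-binding part of the complex on the ISRE, had 327 in Akita and 314 in WT (0.06). Irf5, which drives inflammatory cytokines behind Toll-like receptors, had 227 in Akita and 180 in WT (0.33). Irf8, a factor of myeloid development, had 382 in Akita and 463 in WT (-0.28). Irf4, a factor of lymphocytes, was below the medians in both grafts, at 26.2 in Akita and 25.5 in WT. The family median was above 0 with the loess correction (0.01), where 1 IRF was past 2-fold higher, and below it with the other scalings.

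The IRF2-binding proteins, corepressors named for their partner, split as well, with a median of -0.02 as deposited and of 0.02 and 0.03 after quantile normalization and loess correction. Irf2bp2 had 3370 in Akita and 1870 in WT (0.85). Irf2bp1 had 288 in Akita and 448 in WT (-0.63). For Irf2bpl the signals were nearly equal, at 1579 in Akita and 1597 in WT (-0.02).

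The IFIT proteins bind viral RNA and block its translation, and their genes lie side by side. Of 5 on the array, 4 were measured, and 1 was higher and 3 were lower (median log2 ratio -0.27). Ifit3 had signals of 234 in Akita and 528 in WT. It was 2.25-fold lower in Akita, which is 3.51 SD of the scatter between probe sets. Its neighbours differed less. Ifit2 had 217 in Akita and 297 in WT (-0.45). Ifit1 had 256 in Akita and 272 in WT (-0.09). The single IFIT gene on the other side was Ifit1bl1, with 107 in Akita and 103 in WT (0.07). With median centring, quantile normalization or loess correction 0 of the 4 were higher, against 33.58%, 44.29% and 46.52% of all measured genes. Ifit1bl2 was below the medians, at 74.5 in Akita and 61.9 in WT.

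The IFITM genes encode small membrane proteins, of which IFITM3 is known to restrict the entry of viruses. All 5 measured members of 7 on the array were higher in Akita (median log2 ratio 1.47, or 0.78 with signals raised to the medians), also after median centring, quantile normalization and loess correction. Ifitm6 had a signal of 1233 in Akita and 150 in WT. This difference, 8.23-fold and 9.09 SD of the scatter between probe sets, was the largest among interferon genes with both signals above the medians. Ifitm1 had 526 in Akita and 190 in WT (2.77-fold). Ifitm3 had 2739 in Akita and 1599 in WT (1.71-fold). Ifitm2, with the ISRE core printed above, had 2126 in Akita and 1428 in WT (1.49-fold). These 4 genes form a cluster with Ifitm5, and their log2 ratios spanned 0.57 to 3.04. Ifitm10, a member whose induction by interferon is not implied by its name, had 103 in Akita and 9.87 in WT, which is at least 1.25-fold. Ifitm5, known from bone, was below the medians at 17.0 in Akita and 7.05 in WT, and so was Ifitm7 at 19.3 in Akita and 43.6 in WT.

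The oligoadenylate synthetases (OAS) activate a ribonuclease on sensing double-stranded RNA. Only 4 of 10 were measured, 2 higher and 2 lower. Oas1a had 606 in Akita and 505 in WT (0.26). Oas2 had 129 in Akita and 83.3 in WT (0.63), where the WT signal lay just above the array median. Oasl1, which lacks the synthetase activity, had 292 in Akita and 370 in WT (-0.34). Its neighbour Oasl2 had 1.83 in Akita and 101 in WT. Because 101 lies just above the array median, Oasl2 is at least 1.10-fold lower. The other 6 genes (Oas1b, Oas1c, Oas1e, Oas1f, Oas1h and Oas3) were below the medians, from 30.0 to 81.0 in Akita and from 6.19 to 77.7 in WT.

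GBP and immunity-related (IRG) GTPases are induced most strongly by interferon gamma and act on vacuoles that hold pathogens. Of the 5 measured GBP genes, of 6 on the array, 4 were lower and 1 higher (median log2 ratio -0.40). After median centring all 5 were lower. Of all 12538 measured genes, 6917 were lower as deposited and 8328 after median centring. Gbp6 had 143 in Akita and 326 in WT, 2.28-fold lower (1.95 SD of the scatter between probe sets). Its second probe set went the other way, with 120 in Akita and 103 in WT (0.22). Gbp3 had 238 in Akita and 314 in WT (-0.40). Gbp2 had 285 in Akita and 342 in WT (-0.26). The GBP gene that was higher as deposited was Gbp7, with 554 in Akita and 513 in WT (0.11). Gbp8 had 87.1 in Akita and 135 in WT, at least 1.47-fold lower, and Gbp2b was below the medians at 8.29 in Akita and 6.82 in WT.

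All 5 IRG genes were measured and all 5 were lower in Akita (median log2 ratio -0.35), with 0 past 2-fold, also after median centring, quantile normalization and loess correction. Irgm1, a regulator of the other IRG proteins, had 887 in Akita and 1316 in WT (1.48-fold lower, 2.65 SD of the scatter between probe sets). Iigp1, an effector that coats vacuoles, had 409 in Akita and 633 in WT (-0.63). Irgm2 had 303 in Akita and 387 in WT (-0.35). Igtp, next to Irgm2 on the chromosome and with the ISRE core printed above, had 799 in Akita and 903 in WT (-0.18). Ifi47 was nearest to equal, at 290 in Akita and 292 in WT (-0.01).

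The PYHIN genes encode interferon-inducible nuclear proteins, several of which bind DNA, and 6 of them lie in 1 cluster. Of the 5 measured, 4 were higher and 1 lower (median log2 ratio 0.77), also after median centring, quantile normalization and loess correction. Ifi209 had 389 in Akita and 88.3 in WT, 4.41-fold higher. Its second probe set had 231 in Akita and 80.0 in WT, at least 2.79-fold higher. Both readings of Ifi209 were thus past 2-fold. Ifi207, whose promoter stretch is printed above, had 144 in Akita and 17.4 in WT, at least 1.73-fold higher. Ifi203 had 191 in Akita and 112 in WT (0.77). Ifi204 had 131 in Akita and 87.4 in WT (0.58). The exception was Ifi213, which had 78.2 in Akita and 121 in WT and was at least 1.32-fold lower. Ifi202b was below the medians, at 4.75 in Akita and 7.84 in WT.

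**Figure D3:**
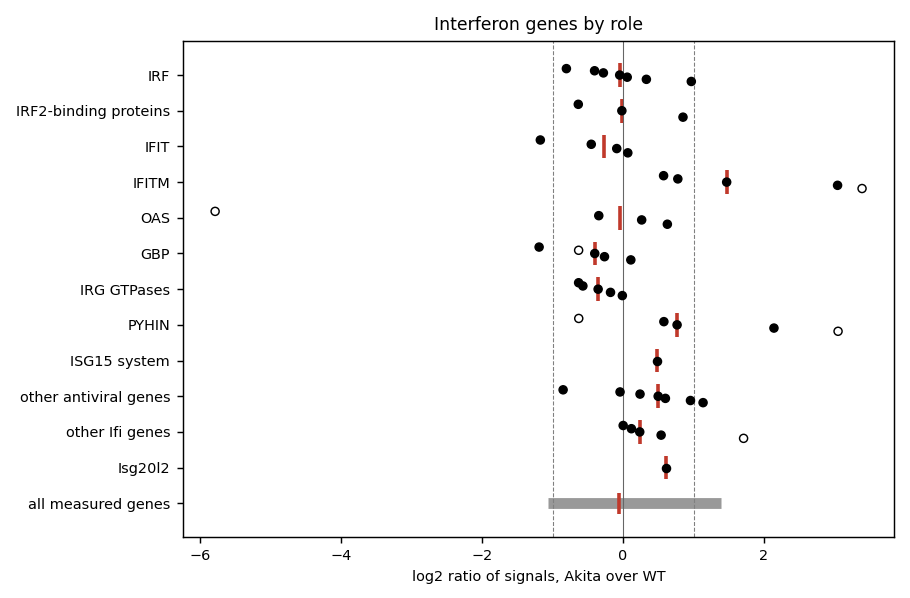
Log2 ratio of the signals, Akita over WT, of each measured interferon gene by role, with filled points where both signals reached the array medians, open points where only 1 did, and red bars at the median. The grey bar spans the middle 90% of all measured genes, dashed lines mark 2-fold, and the IFITM genes lie right of 0 while the IRG genes lie left of it.

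Among other antiviral genes, 7 of 9 were measured, 5 higher and 2 lower (median log2 ratio 0.50). Isg20, an RNA exonuclease, had 1902 in Akita and 866 in WT, 2.20-fold higher and 5.28 SD of the scatter between probe sets. It was not past 2-fold after median centring. Rsad2 (viperin), which stops viral RNA synthesis, had 2463 in Akita and 2084 in WT (0.24), and its other probe sets gave 0.58 and 0.68. Ifih1, a sensor of double-stranded RNA, had 706 in Akita and 727 in WT (-0.04), so the grafts hardly differed there. Trim30d had 360 in Akita and 185 in WT (0.96). Its neighbour Trim30a, which dampens NF-κB signaling, had 419 in Akita and 276 in WT (0.60). Bst2 (tetherin), which holds budding virus at the cell surface, had 251 in Akita and 178 in WT (0.50). Xaf1, an antagonist of an apoptosis inhibitor, had 99.7 in Akita and 180 in WT (-0.85, or 1.39 SD of the scatter between probe sets). It was the gene of this group farthest below equal signals. Its second probe set had 40.3 in Akita and 120 in WT, at least 1.31-fold lower. Mx1 and Mx2, dynamin-like GTPases, were below the medians, at 12.8 and 15.2 in Akita and at 33.3 and 11.0 in WT. Usp18, which removes ISG15 from proteins and dampens the receptor, had 225 in Akita and 161 in WT (0.48).

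The other Ifi genes were all higher as deposited (5 of 6 measured, median log2 ratio 0.24), and 3 higher and 2 lower after median centring. Ifi35 had 2798 in Akita and 1925 in WT (1.45-fold), and its other probe sets gave log2 ratios of 0.48 and 1.31. Ifi30, a lysosomal thiol reductase of antigen-presenting cells, had 2658 in Akita and 2256 in WT (1.18-fold). Ifi27 had 1964 in Akita and 1810 in WT (0.12), and its second probe set had 1199 in Akita and 686 in WT (0.81). Its neighbour Ifi27l2a had a signal of 456 in both grafts. Ifi27l2b, next to both, had 112 in Akita and 34.4 in WT, at least 1.36-fold. Ifi44l was below the medians, at 46.8 in Akita and 3.18 in WT. Isg20l2, an exonuclease of ribosomal RNA processing, had 1118 in Akita and 732 in WT (0.61).

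Of the 67 genes, 20 had more than 1 probe set, which gives a second reading on the same arrays. In 15 genes at least 2 probe sets were measured. They had the same sign in 11 (Gbp2, Gbp7, Ifi209, Ifi27, Ifi35, Iigp1, Irf5, Irf8, Rsad2, Trim30a and Xaf1) and opposite signs in 4 (Gbp6, Irf2bp2, Irf2bpl and Irf3). For Irf3 the brightest probe set gave -0.05, whereas another had 277 in Akita and 135 in WT (1.03) and a further one had 197 in Akita and 115 in WT (0.78). For Irf2bp2 only the brightest probe set stood apart (0.85), since the other 3 lay between -0.17 and 0.07. For Irf2bpl the other measured probe set had 158 in Akita and 74.4 in WT, at least 1.91-fold higher. No gene had measured probe sets past 2-fold in opposite directions.

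**Figure D4:**
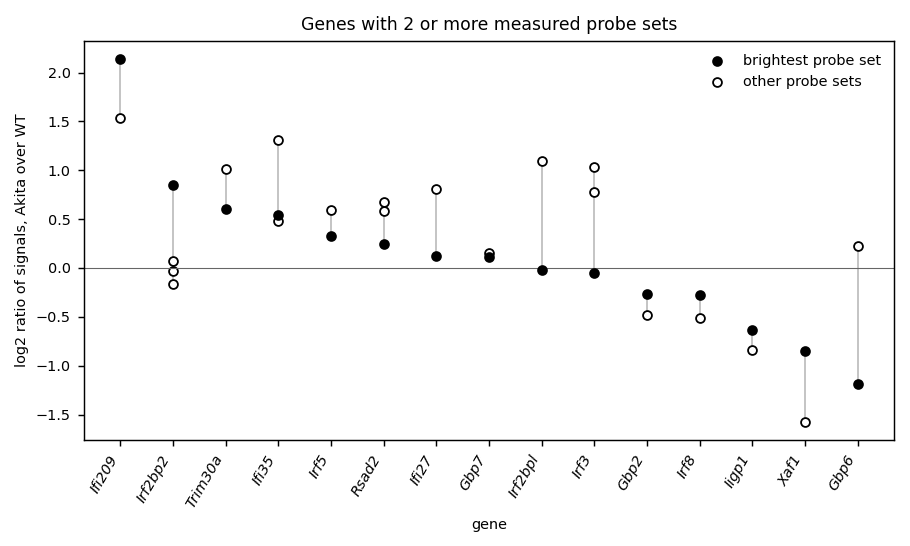
Log2 ratio of the signals, Akita over WT, of every measured probe set of the 15 interferon genes with at least 2 of them, as deposited, filled for the brightest probe set of a gene and open for the others. Ifi209 lies above 1 with both probe sets, and Gbp6, Irf2bp2, Irf2bpl and Irf3 have probe sets on both sides of 0.

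The rest of the pathway was read from gene lists. None of the 10 interferon ligands on the array was measured, with signals from 5.58 to 87.3 in Akita and from 7.70 to 42.4 in WT. Ifnb1, interferon beta, had 48.8 in Akita and 40.6 in WT, and Ifng, interferon gamma, had 5.58 in Akita and 7.70 in WT. The other 8 were type I genes (Ifna1, Ifna2, Ifna4, Ifna5, Ifna9, Ifna11, Ifnab and Ifnz), with signals no higher than 87.3 in Akita and 42.4 in WT, both of Ifnz. Of the receptors and signal transducers, 8 of 10 were measured, 3 higher and 5 lower, with 0 past 2-fold (median log2 ratio -0.06). The chains of the type I receptor were both lower, Ifnar1 with 476 in Akita and 537 in WT and Ifnar2 with 940 in Akita and 1210 in WT. The chains of the interferon gamma receptor split, Ifngr1 with 610 in Akita and 491 in WT and Ifngr2 with 394 in Akita and 456 in WT. Il10rb, shared by the interferon lambda receptor, had 2425 in Akita and 1856 in WT. Of the kinases that pass the signal on, 2 were close to equal, Jak1 with 2616 in Akita and 2745 in WT and Jak2 with 1148 in Akita and 1181 in WT. Tyk2 had 297 in Akita and 243 in WT (0.29). Ifnlr1, the specific chain of the interferon lambda receptor, was below the medians at 65.2 in Akita and 82.1 in WT, and so was Stat2 at 80.3 in Akita and 73.9 in WT.

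Upstream sensors and adaptors gave 9 measured genes of 12, 3 higher and 6 lower (median log2 ratio -0.21). Only Zbp1, a sensor of nucleic acid in the Z form, was past 2-fold as deposited, with 20.4 in Akita and 90.7 in WT, and no bound can be given because the higher signal is below the Akita median. Of the other interferon-stimulated genes, 28 of 29 were measured, 13 higher and 15 lower (median -0.15), 2 past 2-fold higher and 1 lower. Slfn2, a Schlafen family gene, had 1159 in Akita and 404 in WT (2.87-fold). Epsti1 had 176 in Akita and 58.5 in WT (at least 2.12-fold). Pml, which builds nuclear bodies, had 79.6 in Akita and 179 in WT (at least 1.96-fold lower).

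Of the negative regulators, 4 of 5 were measured, 3 higher and 1 lower (median log2 ratio 0.50). Socs3, an inhibitor of JAK kinases that many cytokines induce, had 5208 in Akita and 1580 in WT (3.30-fold). Socs1, the inhibitor that interferon gamma induces, was below the medians at 26.6 in Akita and 56.7 in WT. Among interferon-induced chemokines, Cxcl10 had 349 in Akita and 156 in WT (2.24-fold). Cxcl11 had 102 in Akita and 19.6 in WT (at least 1.23-fold), and Cxcl9 was below the medians at 18.2 in Akita and 50.3 in WT. Of the antigen presentation genes that interferon gamma induces, 11 of 13 were measured, 6 higher and 5 lower (median 0.14). Cd74, the invariant chain of MHC class II, had 1514 in Akita and 746 in WT (2.03-fold) and was the only gene of this list past 2-fold.

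Markers of further cell types were read beside these values. All 6 markers of peritoneal macrophages were past 2-fold, higher in Akita, with summed signals of 65799 in Akita and 6602 in WT. These sums came mostly from Saa3 (33314 in Akita and 3265 in WT) and Fn1 (17667 in Akita and 2204 in WT). All 3 measured neutrophil markers were higher, 2 of them past 2-fold (list sums 16598 in Akita and 4270 in WT). These were S100a8 and S100a9, whereas Mmp9 had 144 in Akita and 120 in WT (0.26). Cxcr2, of the same list, was below the medians at 43.8 in Akita and 55.5 in WT. Of B cell markers, 3 of 5 were measured, each with only 1 signal at the median or higher. Of these 2 were past 2-fold higher, and Pax5 had 15.5 in Akita and 113 in WT, at least 1.24-fold lower (list sums 897 in Akita and 240 in WT). Of T and NK cell markers, only Cd8a of 7 was measured (sums 300 in Akita and 271 in WT), and the defining Cd3e was below the medians at 12.8 in Akita and 18.8 in WT. Plasmacytoid dendritic cells are known as strong producers of interferon. Their marker Siglech was below the medians at 50.3 in Akita and 5.13 in WT, and Ly6d had 244 in Akita and 17.0 in WT (at least 2.94-fold). Tcf4, of the same list, was lower, with 652 in Akita and 1259 in WT (-0.95), and over the 3 measured genes 1 was higher and 2 were lower (median -0.20). The sum of their list (55164 in Akita and 63453 in WT) was nearly all Klk1, a kallikrein that the kidney also expresses. All 5 measured endothelial markers were lower as deposited (median log2 ratio -0.83, list sums 1170 in Akita and 2108 in WT). For Pecam1, with 12.5 in Akita and 86.7 in WT, no bound can be given because the higher signal is below the Akita median. The 4 beta cell markers (median 0.09) and the 6 proximal tubule markers (median -0.07) had 0 past 2-fold, with Ins2 at 88302 in Akita and 68738 in WT. Kap, of the proximal tubule list, had 128500 in Akita and 89517 in WT, so both samples also held transcripts of the kidney tubule. What each tissue gave to the signals of the interferon genes was not tested. The medians of both macrophage lists (2.69 and 3.48) were above that of every role group of the interferon genes, of which the IFITM genes had the highest (1.47). With signals raised to the array medians, the peritoneal macrophage median was 3.18 and the IFITM median 0.78. The lists and roles were chosen with earlier results of these data known, so this order is a description only.

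**Figure D5:**
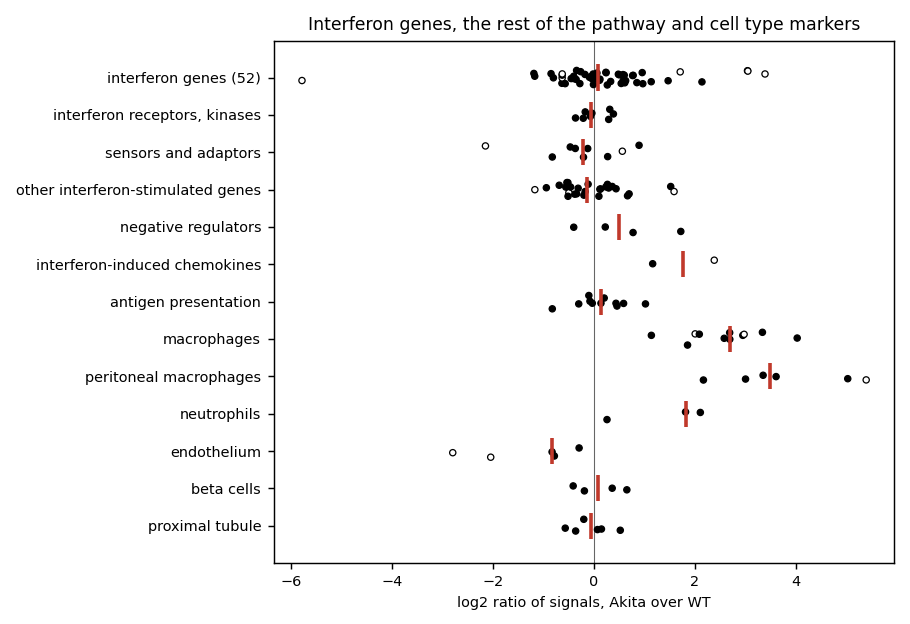
Log2 ratio of the signals, Akita over WT, of each measured gene among the 52 interferon genes, the lists of the rest of the pathway and the cell type markers, with red bars at the medians and open points where only 1 signal reached the array median. The interferon genes centre near 0 (median 0.09), and the macrophage markers all lie right of 1 (median 2.69). The lists were chosen with earlier results of these data known.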

How the data were processed

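Total RNA of 2 islet graft samples, 1 per condition, was measured on 1 MOE430 2.0 array each. The authors deposited 1 table of MAS5 signal intensities without log transformation. The table held 45101 probe sets including 64 controls. No source used here gives the MAS5 version, its settings or a genome build. Columns were matched to recipients through the labels. Probe sets were named from the platform annotation, and all 67 symbols were current in RefSeq (GRCm38.p6). Each gene was represented by its brightest probe set on the log2 scale, averaged over both arrays. Signals were compared as deposited, and a difference was counted past 2-fold. No test was possible with 1 array per group. The counting was tested on simulated data. The members, roles, pathway lists and marker lists were chosen with earlier results of these data known. The text names every measured member past 2-fold, every IRF and the 3 brightest genes of each role; other members are named to account for all 67, and genes of the lists by size of the ratio or signal. Probe sets with several symbols were left out. As alternatives, the arrays were quantile normalized, centred on their medians or loess corrected (span 0.3, 3 iterations), and further ones were floors at the median and 75th percentile, other filters and fold limits, and other choices of probe set and members. The tools were pandas 2.3.3, numpy 2.4.6, statsmodels 0.14.6, scipy 1.17.1 and matplotlib 3.10.9 under Python 3.11.15.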

Additional observations from a re-analysis of the deposited data

Results flagged for a closer look

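Probe sets that carry several gene symbols were not used in the comparison, and 12 of them include a symbol of an interferon gene. In 5 of these neither signal was below its array median, and 2 of the 5 were past 2-fold, both with the higher signal in the Akita graft, while 0 were past 2-fold lower, with ratios from 1.17 to 2.59. A further 2 reached the median only on the Akita array, and 5 were below it on both. They are listed here because they lie outside the main measurement, and no gene is named because the signal cannot be given to 1 of them.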

How the results depend on the processing

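The 7 genes past 2-fold higher became 4 with signals raised to the array medians, 2 with signals raised to the 75th percentiles, 12 with no filter on low signals, 4 with both signals required at or above the medians and 15 at a limit of 1.5-fold. The 3 genes past 2-fold lower became 0 with the 75th percentiles, 6 with no filter, 9 at 1.5-fold and 1 at 3-fold. The median log2 ratio of the measured interferon genes, 0.0887, was -0.0533 with median centring, -0.007 with the 75th percentiles and 0.2386 without probe sets that can bind several transcripts. The remaining 22 of 34 alternative values of these results kept their direction and stayed within the limits set for a moved value. Of 243 values of 42 named genes, 11 moved by more than the scatter between probe sets, and 0 of those past 2-fold turned round. Of the 10 genes past 2-fold, 10 stayed past it with quantile normalization and with loess correction, 9 with median centring (not Isg20), 6 with signals raised to the medians (not Ifi207, Ifi27l2b, Ifitm10 and Oasl2), 9 with the median of all probe sets (not Gbp6) and 7 without probe sets that can bind several transcripts, where Ifi27l2b, Isg20 and Oasl2 had none left. No paired analysis was possible because each group had 1 array and the labels carry no replicate numbers, and no array could be left out. At signals below 64, ratios of probe sets of a gene scattered 3.38-fold.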
